A study of Mus musculus with 4 samples.

Results

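The genes described here are 36 nuclear genes for subunits of complexes II, III, IV and V of mitochondrial oxidative phosphorylation, together with somatic cytochrome c and the inhibitory factor of the ATP synthase. They were chosen by symbol in a table of 21899 rows of protein-coding genes, where each symbol had 1 row. All 36 were among the 12345 rows that averaged 1 FPKM or more and were tested. FPKM counts sequenced fragments per kilobase of transcript, scaled to the library's total, so levels of different genes can be compared per length. The set holds 4 genes of complex II, 10 of complex III with cytochrome c, 6 of complex IV and 16 of complex V. Cox4, Cox6a, Cox7a and Cox8, whose isoforms differ between tissues, are not among them, and the Cox6b and Cox7b families are represented by Cox6b1 and Cox7b.

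The tissue was subcutaneous white fat of mice. The inhibitor group had 2 libraries labelled as miR-203 inhibitor, and the control group had 2 libraries labelled as negative control. A library holds RNA of 3 animals combined, so p-values measure only the spread between pools, and animals cannot be told apart within one. The study's title asks how cyclic AMP, miR-203 and interferon gamma act in the browning of this fat and in glucose tolerance. The sources used here do not give strain, sex, age, genotype, dose, route or duration.

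Complexes II to V work in the inner mitochondrial membrane. Complex II passes electrons from succinate to ubiquinone, complex III passes them to cytochrome c, complex IV passes them to oxygen, and complexes III and IV pump protons. Complex V, the ATP synthase, lets the protons flow back and makes ATP. In brown and beige adipocytes the uncoupling protein Ucp1 lets protons return without making ATP, and these cells are known for abundant mitochondria with a large respiratory chain.

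The libraries differed little in depth, as read from the spacing of low values. Relative to control 1 it was 0.927 and 0.901 in inhibitor 1 and 2 and 1.06 in control 2. Their FPKM totals lay between 584594 and 608300.0, but FPKM is already scaled to each library's total, so these totals do not show size. The absolute depth is unknown. Fat markers were abundant in all libraries, with a sum over 12 adipocyte markers of 27754 and 25464 FPKM with the inhibitor and 32908 and 33995 FPKM in the controls. Of 10 skeletal muscle markers in the table, 7 averaged under 1 FPKM, and the 3 others summed to 5.69 and 5.93 FPKM with the inhibitor and 2.66 and 7.23 FPKM in the controls. B cell and lymph node markers summed to 182 and 209.5 FPKM with the inhibitor and to 393 and 9.53 FPKM in control 1 and control 2, so control 2 stood apart from the other libraries in these genes. The 13 protein genes of mitochondrial DNA took 10.2% and 12.1% of the summed FPKM with the inhibitor and 14.4% and 17.5% in the controls, and every FPKM is relative to such a total. Replicate libraries correlated across genes at Pearson's r = 0.986 for the inhibitor and 0.975 for the control. Throughout, the first of a pair of values is replicate 1 of that group and the second is replicate 2.

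The first comparison asked whether expression of these subunits differed between inhibitor and control fat. Almost all of them were slightly lower in the inhibitor libraries: 35 of 36 had a log2 fold change below 0, against 40% of all rows tested. In 33 of the 36 both inhibitor values lay below both control values, which was so for 19.1% of all rows tested. In 1 of them, Atp5g1, both inhibitor values lay above both control values, which was so for 33.1% of all rows. The remaining 2, Atp5j2 and Atp5k, overlapped between the groups, as did 5895 of all 12345 rows. The median log2 fold change of the 36 was -0.24, beside a median of 0.066 over all rows, and the median gene stood at 84.3% of its control mean.

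No subunit passed the test across all genes. Fold changes were fitted on log2(FPKM + 1), which understates the change of genes near 1 FPKM. With limma, which shares the spread between libraries over genes, and Benjamini-Hochberg adjustment over the 12345 rows, 0 of the 36 were called lower at an adjusted p under 0.05, where 0.267% of all rows were, and 0 were called higher, where 3.22% of all rows were. At an unadjusted p under 0.05, 17 were lower, against 5.95% of all rows, and 1 was higher, against 13.4% of all rows. The smallest adjusted p among them was 0.0552, and their standard errors lay between 0.077 and 0.14 on the log2 scale. The calls depended on the processing. After quantile normalization 4 subunits were called lower, where 92 of all 12345 rows were. With genes of mitochondrial DNA taken out 1 was called lower, where 53 of 12332 rows were. Without control 2, 35 of 36 genes were still below 0, with a median of -0.20, and without control 1 the median was -0.32. In bulk tissue, fewer cells of a type and less RNA per cell cannot be told apart.

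**Figure D1:**
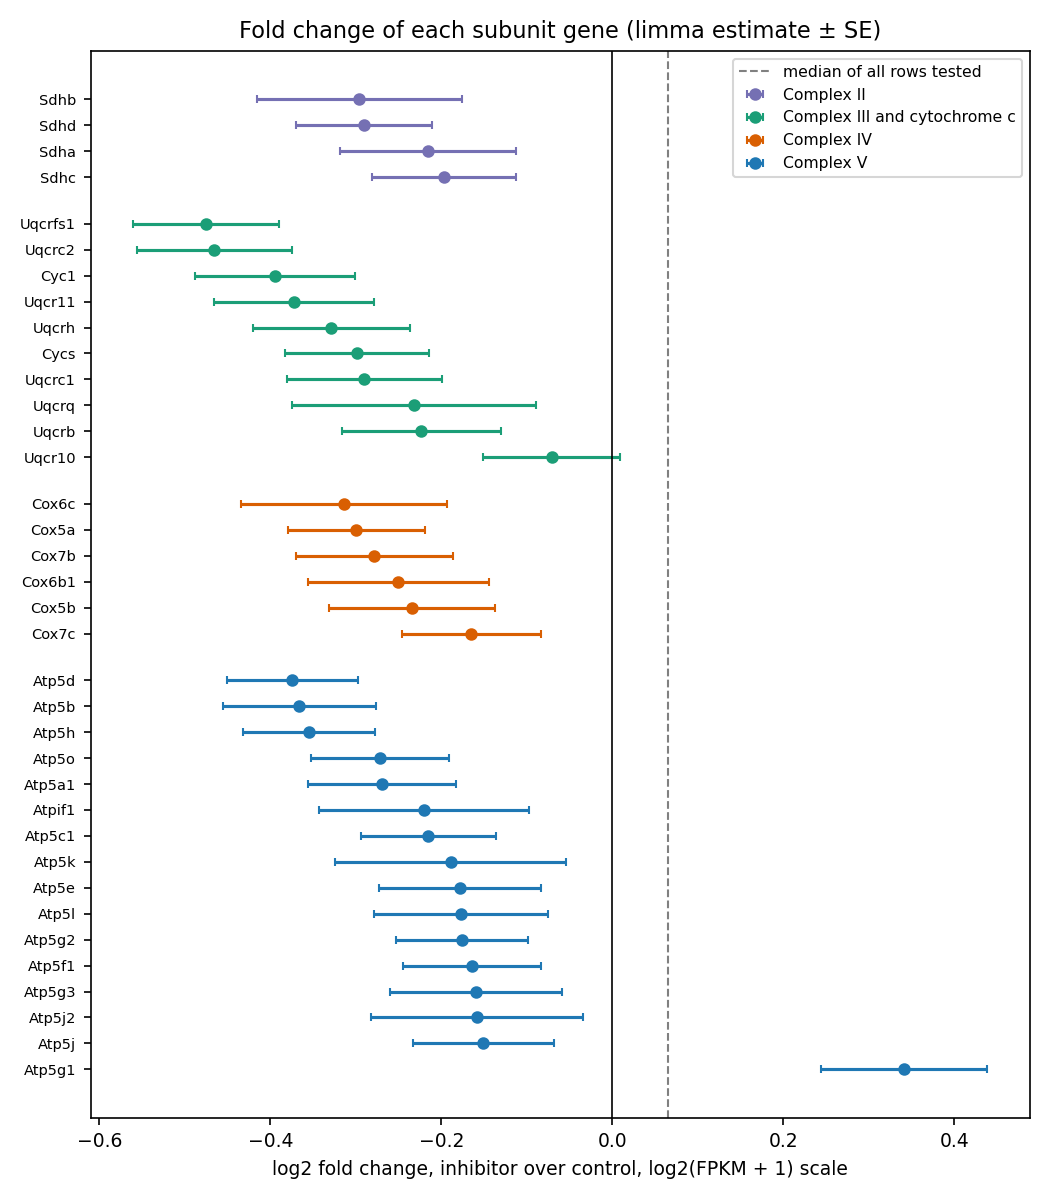
Log2 fold change (inhibitor over control, log2(FPKM + 1) scale) of each of the 36 genes, with limma standard errors, grouped by complex and ordered within it. The dashed line is the median of all rows tested, 0.066; 35 genes lie left of 0 and Atp5g1 lies right of it at 0.34.

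Complex II, succinate dehydrogenase, is the one enzyme that the citric acid cycle and the respiratory chain share, and all of its subunits are nuclear genes. All 4 were lower with the inhibitor, without overlap between the groups (19.1% of all rows were), and none passed the test. Sdha, the flavoprotein that oxidises succinate, had 191 and 213 FPKM in the inhibitor libraries, against 221 and 248 FPKM in the controls, a log2 fold change of -0.22. Its partner Sdhb, the iron-sulfur protein, had 172 and 154 FPKM with the inhibitor and 183 and 219 FPKM in the controls, with a fold change of -0.30 on the log2 scale (SE 0.12, adjusted p = 0.267). Inhibitor 1 and control 1 lay close together for Sdhb, and control 2 stood highest. The membrane anchors Sdhc and Sdhd hold the haem and the ubiquinone site. Sdhd had 150.3 and 146 FPKM in the inhibitor libraries, against 178 and 185 FPKM in the controls, and its fold change of -0.29 on the log2 scale (SE 0.079, adjusted p = 0.136) had the smallest p of the complex. Sdhc had 132 and 128 FPKM with the inhibitor and 154 and 144 FPKM in the controls, and its fold change of -0.20 on the log2 scale (SE 0.084, adjusted p = 0.287) was nearest to 0 among these 4. The median fold change was -0.26 for Sdha and Sdhb and -0.24 for the anchors.

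Complex III held the subunits with the largest differences. All 9 of its genes here and Cycs were lower with the inhibitor without overlap, against 19.1% of all rows. At an unadjusted p under 0.05, 7 of the 10 were lower, against 5.95% of all rows. The redox subunits are those that carry electrons. Uqcrfs1, the Rieske iron-sulfur protein (chr13:30540308-30545362 of GRCm38, minus strand), had 163 and 160.1 FPKM in the inhibitor libraries, against 216 and 235 FPKM in the controls, with a fold change of -0.48 on the log2 scale (SE 0.085, adjusted p = 0.0552), the lowest fold change and the smallest p of all 36. Cyc1, which encodes cytochrome c1, had 181 and 181 FPKM with the inhibitor and 224 and 254 FPKM in the controls, a log2 fold change of -0.39. For both genes the inhibitor pools lay close together and the controls lay well above them. Uqcrfs1 thus stood at 71.7% and Cyc1 at 75.8% of the control mean.

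The core proteins Uqcrc1 and Uqcrc2 face the matrix and are related to mitochondrial processing peptidases. Uqcrc2 (chr7:120635176-120659524 of GRCm38, plus strand), had 139.8 and 145 FPKM in the inhibitor libraries, against 187 and 208 FPKM in the controls, with a fold change of -0.47 on the log2 scale (SE 0.091, adjusted p = 0.07). Uqcrc1 had 184 and 192 FPKM with the inhibitor and 218 and 243 FPKM in the controls, a log2 fold change of -0.29. Uqcrfs1 and Uqcrc2 were among the 4 subunits called lower after quantile normalization, where 92 of all 12345 rows were.

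The small subunits of complex III ranged more widely. Uqcr11 had 311 and 292 FPKM in the inhibitor libraries, against 371 and 412 FPKM in the controls, a log2 fold change of -0.37, and Uqcrh, the acidic hinge protein near cytochrome c1, had 322 and 301 FPKM with the inhibitor and 374 and 409.5 FPKM in the controls, a log2 fold change of -0.33. Uqcrb had 287 and 303 FPKM with the inhibitor, against 326 and 363 FPKM in the controls. Uqcrq had 303 and 312 FPKM with the inhibitor and 315 and 414 FPKM in the controls, so inhibitor 2 and control 1 almost met and control 2 alone was high. Uqcr10, the most abundant gene of the complex in every library, had 436 and 443 FPKM in the inhibitor libraries, against 451 and 473 FPKM in the controls, and its fold change of -0.071 on the log2 scale (SE 0.08, adjusted p = 0.678) was the smallest difference of all 36. Uqcr10 and Uqcrfs1 therefore mark the ends of the range within 1 complex, at 95.2% and 71.7% of the control mean. The difference between the fold changes of these subunits was not tested.

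Cytochrome c, the soluble carrier from complex III to complex IV, which also takes part in the start of apoptosis when it leaves mitochondria, is encoded by Cycs. It had 147 and 136 FPKM in the inhibitor libraries, against 173 and 176 FPKM in the controls, with a fold change of -0.30 on the log2 scale (SE 0.084, adjusted p = 0.147). The controls were close together, and both inhibitor pools lay below them.

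Complex IV, cytochrome c oxidase, has a catalytic core from mitochondrial DNA, which the nuclear subunits surround. All 6 nuclear genes of the set were lower with the inhibitor without overlap, against 19.1% of all rows. Of these, 3 had an unadjusted p under 0.05, against 5.95% of all rows. Cox5a, a subunit on the matrix side, had 294 and 307 FPKM in the inhibitor libraries, against 364 and 376 FPKM in the controls, with a fold change of -0.30 on the log2 scale (SE 0.08, adjusted p = 0.131), the smallest p of the complex. Cox5b, which binds zinc on the same side, had 268 and 237 FPKM with the inhibitor and 288 and 305 FPKM in the controls, a log2 fold change of -0.23. Cox6b1, on the side of the intermembrane space, had 547 and 476 FPKM in the inhibitor libraries, against 581 and 634 FPKM in the controls, the highest level of the complex in every library. Cox6c had the lowest fold change, with 502 and 434 FPKM with the inhibitor and 538 and 626 FPKM in the controls and a fold change of -0.31 on the log2 scale (SE 0.12, adjusted p = 0.249). For Cox5b, Cox6b1 and Cox6c inhibitor 2 was the lower of the inhibitor pools and control 2 the higher of the controls. Cox7b had 117 and 109.9 FPKM in the inhibitor libraries, against 132 and 144 FPKM in the controls, with a fold change of -0.28 on the log2 scale (SE 0.091, adjusted p = 0.193). Cox7c had 357 and 378 FPKM with the inhibitor and 416 and 408 FPKM in the controls, and its fold change of -0.16 on the log2 scale (SE 0.081, adjusted p = 0.348) was nearest to 0.

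The tissue isoforms of complex IV gave a wider range. Of 9 tested rows of that list 1 fell and 0 rose, where 0.267% and 3.22% of all rows did. The 1 was Cox7a1, the isoform of heart, skeletal muscle and brown fat. It had 49.4 and 51.8 FPKM in the inhibitor libraries, against 101 and 125 FPKM in the controls. Its fold change was -1.14 on the log2 scale (SE 0.12, adjusted p = 0.0148). Cox8b, the isoform paired with it, had 239 and 187 FPKM with the inhibitor and 366 and 355 FPKM in the controls (adjusted p = 0.0515). The difference of either from the 6 subunits above was not tested.

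Complex V was lower in 15 of its 16 genes, 13 of them without overlap, against 19.1% of all rows. Its catalytic head turns proton flow into ATP. Atp5b, the catalytic beta subunit and the most abundant of the 36 genes in every library, had 1197 and 1166 FPKM in the inhibitor libraries, against 1475 and 1573 FPKM in the controls, a log2 fold change of -0.37. Atp5a1, the alpha subunit that alternates with it, had 425 and 441 FPKM with the inhibitor and 501 and 544 FPKM in the controls, a log2 fold change of -0.27. For both genes the inhibitor pools lay closer together than the controls, and the groups did not overlap.

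In the central stalk, which rotates within the head, Atp5d, the delta subunit (chr10:80138632-80145818 of GRCm38, plus strand), had 223 and 216 FPKM in the inhibitor libraries, against 285 and 285 FPKM in the controls. Its fold change of -0.37 on the log2 scale (SE 0.077, adjusted p = 0.0759) had the smallest p of the complex, and the control libraries were almost equal. Atp5c1, the gamma subunit, had 255 and 247 FPKM with the inhibitor and 287 and 296 FPKM in the controls. Atp5e, the epsilon subunit, had 381 and 338 FPKM in the inhibitor libraries, against 397 and 415 FPKM in the controls, a log2 fold change of -0.18. The 5 genes of the head and central stalk thus lay between 77.1% and 88.5% of their control means.

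The peripheral stalk holds the head still. Atp5h, its d subunit, had 259.9 and 268 FPKM in the inhibitor libraries, against 335 and 341 FPKM in the controls, with a fold change of -0.35 on the log2 scale (SE 0.078, adjusted p = 0.0896). Atp5o, which encodes the oligomycin sensitivity protein at the top of the stalk, had 262 and 248 FPKM with the inhibitor and 312 and 304 FPKM in the controls, a log2 fold change of -0.27. Atp5f1, the b subunit, had 177 and 183 FPKM in the inhibitor libraries, against 196 and 207 FPKM in the controls, and Atp5j, a coupling factor, had 166 and 178 FPKM with the inhibitor and 189.7 and 192 FPKM in the controls. All 4 were lower without overlap between the groups, against 19.1% of all rows.

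The small membrane subunits included both genes whose groups overlapped. Atp5j2, the f subunit, had 153 and 137 FPKM in the inhibitor libraries, against 147 and 179 FPKM in the controls, so inhibitor 1 lay above control 1. Atp5k, the e subunit that helps to join ATP synthases into dimers, had 332 and 286 FPKM with the inhibitor and 317 and 389 FPKM in the controls, again with inhibitor 1 above control 1. Atp5l, the g subunit with the same role, had 449 and 461 FPKM in the inhibitor libraries, against 478 and 554 FPKM in the controls. Their log2 fold changes were -0.16, -0.19 and -0.18, with standard errors of 0.12, 0.14 and 0.10. These 3 values depended on single libraries. They were -0.021, -0.041 and -0.071 without control 2, and -0.30, -0.34 and -0.28 without control 1. Those of Atp5j2 and Atp5k also lay nearer to 0 by over 1.5 times without inhibitor 2. That of Atp5k lay further from 0 by as much without inhibitor 1. Atpif1, which binds the enzyme and blocks it from splitting ATP when the proton gradient fails, had 55.6 and 48.2 FPKM in the inhibitor libraries, against 56.0 and 65.3 FPKM in the controls, with a fold change of -0.22 on the log2 scale (SE 0.12, adjusted p = 0.397). Inhibitor 1 and control 1 differed by less than 1 FPKM for this gene.

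**Figure D2:**
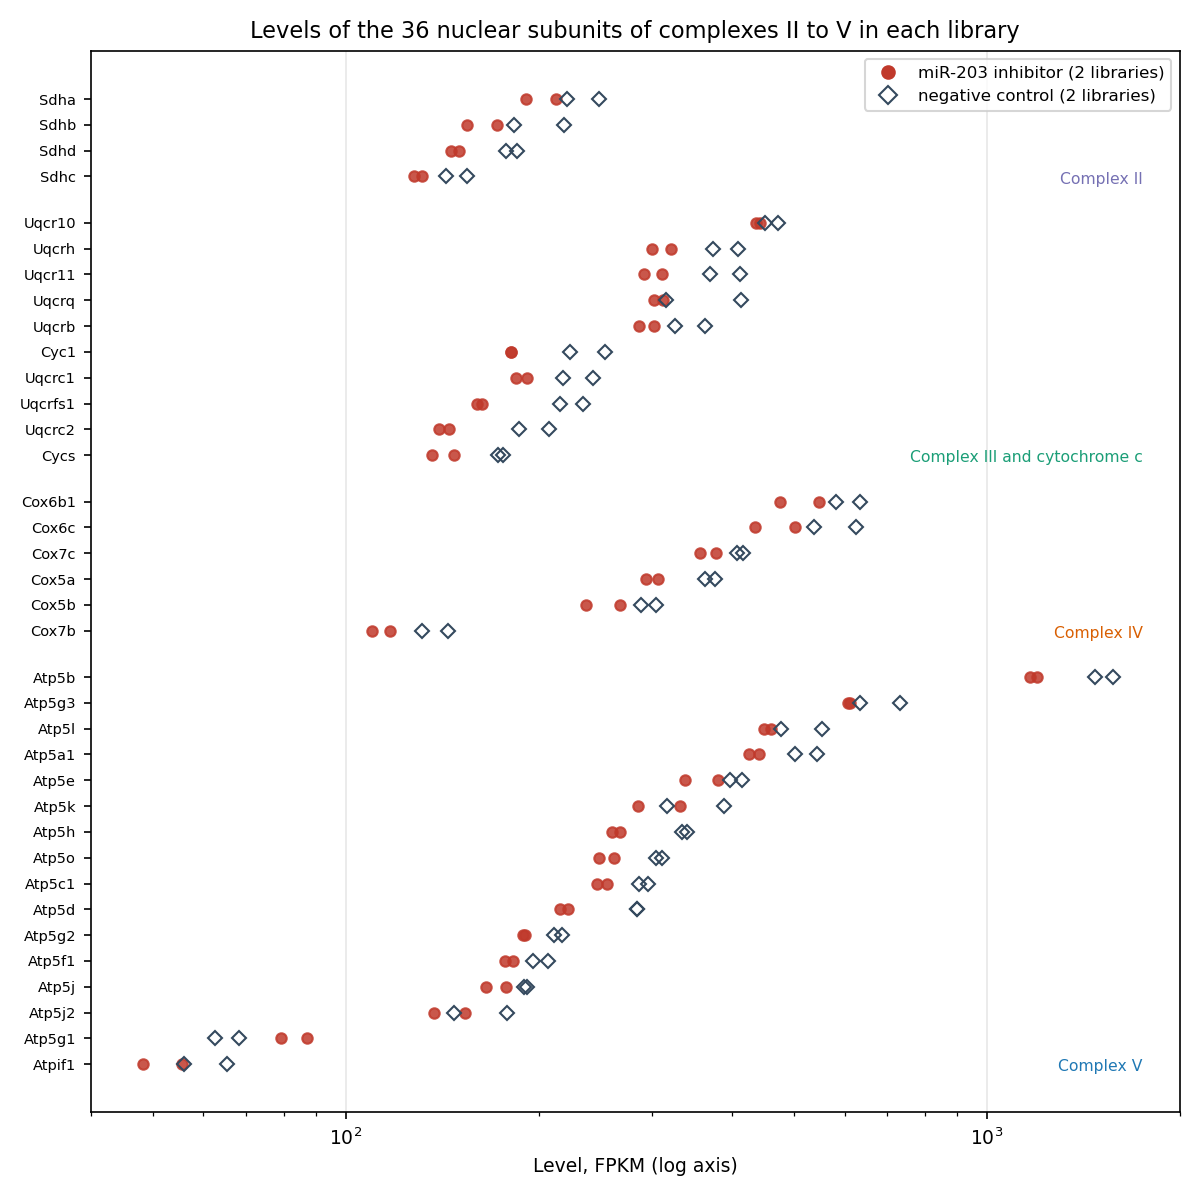
Level in FPKM (log axis) of each of the 36 genes in the 2 inhibitor libraries (filled circles) and the 2 control libraries (open diamonds), by complex and ordered by mean level. Circles lie left of diamonds for 33 genes, right of them for Atp5g1, and the symbols interleave for Atp5j2 and Atp5k.

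The c subunit, whose ring in the membrane is turned by the protons, is made from 3 genes that encode the same mature protein with different import sequences, and their values did not lie on the same side of the controls. Atp5g1 (chr11:96068852-96075670 of GRCm38, minus strand), had 79.2 and 86.9 FPKM in the inhibitor libraries, against 68.1 and 62.5 FPKM in the controls, with a fold change of 0.34 on the log2 scale (SE 0.10, adjusted p = 0.15). Atp5g2 had 190.1 and 189 FPKM in the inhibitor libraries, against 218 and 211 FPKM in the controls, with a fold change of -0.18 on the log2 scale (SE 0.077, adjusted p = 0.299). Atp5g3, the most abundant of them, had 611 and 608 FPKM in the inhibitor libraries, against 634 and 731 FPKM in the controls, with a fold change of -0.16 on the log2 scale (SE 0.10, adjusted p = 0.446). Atp5g1 was thus the 1 gene of the set with both inhibitor pools above both controls, at 127% of its control mean, while Atp5g2 and Atp5g3 stood at 88.5% and 89.3%. Summed over the 3 genes, the level was 880.2 and 885 FPKM with the inhibitor and 919.9 and 1005 FPKM in the controls. Atp5g1 made up 8.99% and 9.83% of that sum with the inhibitor, against 7.4% and 6.22% in the controls. Atp5g1 has near-identical pseudogene copies and Atp5g2 and Atp5g3 have none annotated, so the Atp5g1 values are less certain. No gene of the 3 passed the test, and the difference between their fold changes was not tested.

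**Figure D3:**
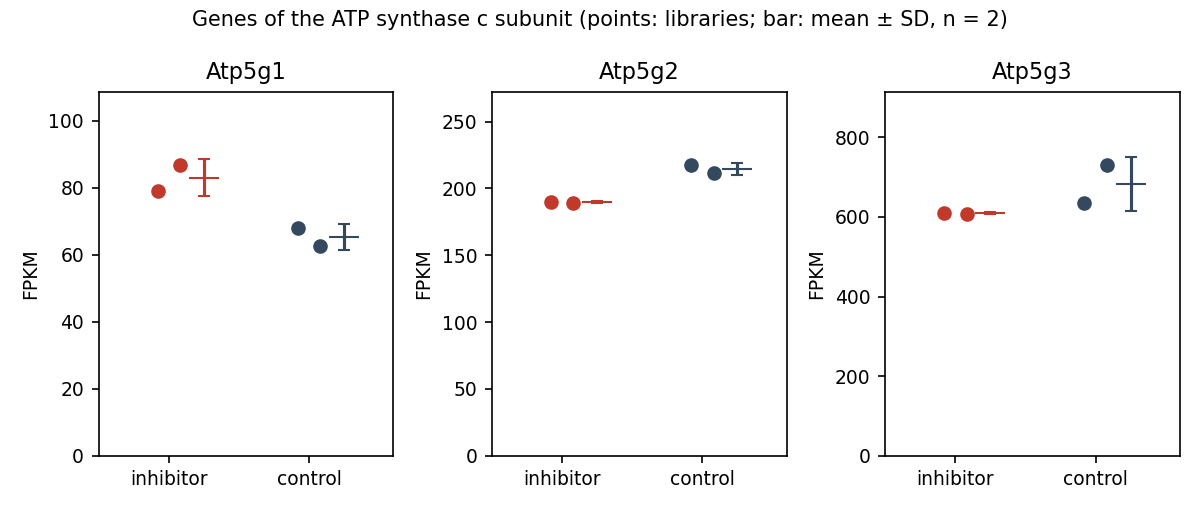
FPKM of Atp5g1, Atp5g2 and Atp5g3 in each library (points), with the mean and SD of each group (bars, n = 2), on linear axes from 0. The inhibitor points lie above the control points for Atp5g1 and below them for Atp5g2 and Atp5g3.

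The next comparison set the complexes side by side. Median log2 fold changes were -0.25 for complex II, -0.31 for complex III with cytochrome c, -0.26 for complex IV and -0.18 for complex V. With upper quartile scaling the median of complex V was -0.29. The summed level of complex II was 645 and 641 FPKM with the inhibitor and 737 and 796 FPKM in the controls. For complex III with cytochrome c it was 2476 and 2465 FPKM with the inhibitor and 2854 and 3187 FPKM in the controls. In every complex both inhibitor sums lay below both control sums. Complex IV summed to 2085 and 1942 FPKM with the inhibitor and 2320.0 and 2493 FPKM in the controls, and complex V to 5216 and 5102 FPKM with the inhibitor and 5896 and 6349 FPKM in the controls. As shares of the control mean, the inhibitor means of these sums were 83.9%, 81.8%, 83.7% and 84.3% for complexes II, III, IV and V. The 4 shares of sums thus lay within a few percentage points of each other, although single genes ranged from 71.7% to 127%. Sums weigh abundant genes most. Atp5b, at 77.5% of its control mean, gave 1524 of the 6123 FPKM of complex V in the control mean. The median gene stood at 83.9%, 80.4%, 83.2% and 87.8% of its control mean in complexes II, III, IV and V, which is a wider range. With 2 pools a group, the differences between complexes were not tested.

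The pools of a group were not equal. Control 2 lay above control 1 in 31 of the 36 genes, with a median difference of 0.12 on the log2 scale. Over all 12345 rows it did so in 5250, with a median of -0.044. Inhibitor 2 lay above inhibitor 1 in 14 of the 36, with a median difference of -0.033. Over all rows it did so in 6473, with a median of 0.012. Complex III with cytochrome c had the largest control difference, with control 2 above control 1 in all 10 genes and a median of 0.15. Without control 2 the fold changes of 11 genes lay nearer to 0 by over 1.5 times, namely Sdha, Sdhb, Uqcrq, Uqcrb, Uqcr10, Cox6c, Atp5g3, Atp5j2, Atp5k, Atp5l and Atpif1, and that of Uqcrq was -0.037 and that of Atp5g3 -0.057. Without control 1 those of Uqcrq, Atp5g3, Atp5j2, Atp5k and Atp5l lay further from 0 by over 1.5 times, at -0.43 for Uqcrq and -0.26 for Atp5g3. Without inhibitor 2 the fold changes of Cox5b, Cox6b1, Atp5e, Atp5j2, Atp5k and Atpif1 lay nearer to 0 by over 1.5 times. Without inhibitor 1 those of Sdha and Atp5j lay nearer to 0 and that of Atp5k further from it by as much. In complex IV inhibitor 2 lay below inhibitor 1 in 4 of 6 genes, with a median of -0.14.  The 36 genes together made up 1.78% and 1.71% of all FPKM in the inhibitor libraries, against 1.99% and 2.11% in the controls.

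**Figure D4:**
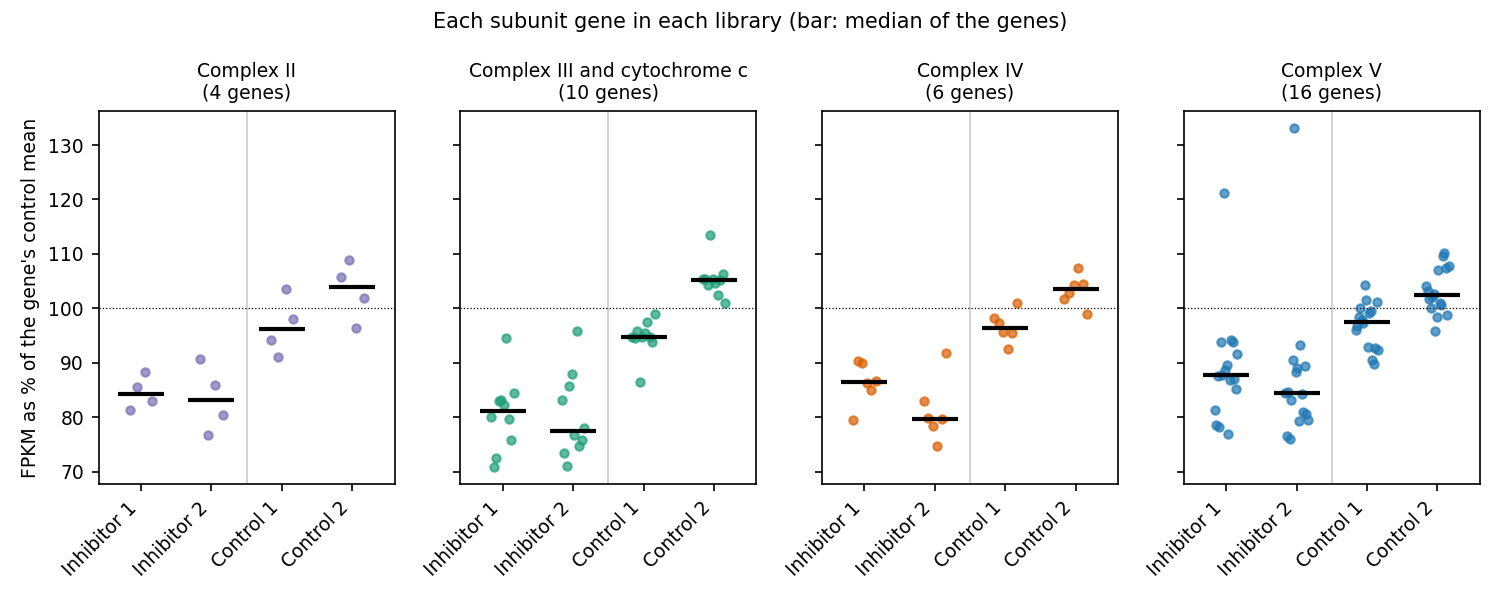
FPKM of each gene as a percentage of its own control mean, in each library and by complex; points are genes, bars are their medians. Median values in inhibitor 1 and inhibitor 2 were 84.2% and 83.1% for complex II, 81.2% and 77.4% for complex III with cytochrome c, 86.4% and 79.7% for complex IV and 87.7% and 84.4% for complex V; the high points in complex V are Atp5g1.

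Complexes III to V also contain subunits encoded in mitochondrial DNA, and the median of their fold changes lay further from 0 than that of the nuclear subunits. The 6 genes, which are mt-Cytb of complex III, mt-Co1, mt-Co2 and mt-Co3 of complex IV and mt-Atp6 and mt-Atp8 of complex V, all had log2 fold changes below 0, with a median of -0.54. None passed the limma test, and 5 of 6 were lower at an unadjusted p under 0.05, against 5.95% of all rows. In 5 of 6 both inhibitor values lay below both control values, against 19.1% of all rows. mt-Cytb, the cytochrome b that works beside Uqcrfs1 and Cyc1, had 4303 and 4699 FPKM in the inhibitor libraries, against 6871 and 7996 FPKM in the controls (adjusted p = 0.0552). The summed level of the 6 was 42804 and 52268 FPKM with the inhibitor and 58733 and 75102 FPKM in the controls. Control 2 was again above control 1. The largest part in every library was mt-Atp8, the gene whose groups overlapped. It had 17764 and 24458 FPKM with the inhibitor and 22557 and 32699 FPKM in the controls. The difference between the fold changes of these 6 genes and those of the nuclear subunits was not tested.

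Complex I takes electrons from NADH and passes them to ubiquinone, which carries them to complex III. Of its 36 listed nuclear subunits 35 had log2 fold changes below 0, with a median of -0.23. In 25 both inhibitor values lay below both control values, against 19.1% of all rows. None passed the limma test in either direction, and 17 were lower at an unadjusted p under 0.05, against 5.95% of all rows. Those with the smallest p were Ndufab1, the acyl carrier protein of mitochondria, with 176 and 168 FPKM with the inhibitor and 217 and 212 FPKM in the controls, and Ndufb6 and Ndufv3, with log2 fold changes of -0.33 and -0.39.

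Assembly factors, which help to build the complexes without being part of them, were mixed. Of 33 tested factors for complexes II to V 21 had log2 fold changes below 0 and 12 above 0, with a median of -0.14. With limma 0 passed in either direction, and at an unadjusted p under 0.05 there was 1 lower and 1 higher, against 5.95% and 13.4% of all rows. Atpaf1, a chaperone for the beta subunit Atp5b, had 11.9 and 10.8 FPKM in the inhibitor libraries, against 14.7 and 16.2 FPKM in the controls (adjusted p = 0.163). Coa4, a factor for complex IV, had a log2 fold change of 0.45, above 0 (adjusted p = 0.139). Cox18, which inserts a subunit of complex IV into the membrane, stood at 0.43 on the same scale.

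Transcription factors and coactivators known to act on respiratory chain genes were mixed as well. Of 11 tested 6 had log2 fold changes below 0 and 5 above 0, with a median of -0.09. With limma 0 passed in either direction, and 2 were lower and 2 higher at an unadjusted p under 0.05, where 5.95% and 13.4% of all rows were. Ppargc1a, the coactivator of mitochondrial biogenesis, had 3.93 and 5.75 FPKM in the inhibitor libraries, against 7.11 and 14.7 FPKM in the controls, with a fold change of -0.97 on the log2 scale (SE 0.35, adjusted p = 0.223). Esrrg, an orphan nuclear receptor that works with it, had 0.679 and 0.633 FPKM with the inhibitor and 1.98 and 3.74 FPKM in the controls, with inhibitor values under 1 FPKM. Pprc1, a coactivator related to Ppargc1a, had 12.0 and 9.27 FPKM in the inhibitor libraries, against 7.77 and 5.12 FPKM in the controls, so its inhibitor values were the higher ones.

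**Figure D5:**
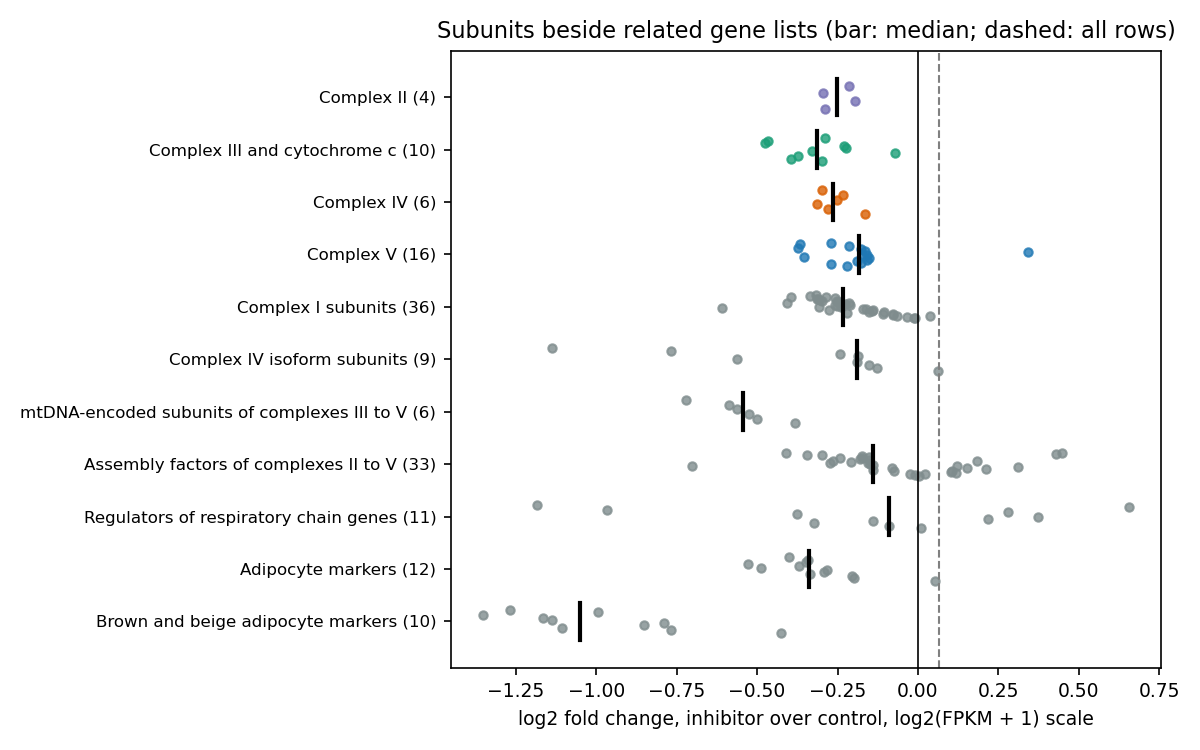
Log2 fold change (inhibitor over control, log2(FPKM + 1) scale) of every tested gene of each list, with the number tested in brackets and the list median as a black bar. The dashed line is the median of all rows tested; medians of the 4 complexes lie between -0.31 and -0.18, that of the subunits from mitochondrial DNA at -0.54, and that of brown and beige adipocyte markers at -1.05.

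Markers of several cell types differed between the same libraries. Brown and beige adipocyte markers, a list that also holds Cox7a1 and Cox8b, fell in 8 of 10 genes and rose in 0. Of all rows 0.267% were called lower and 3.22% higher. Their median log2 fold change was -1.05, with Ucp1 at 287 and 270.3 FPKM with the inhibitor and 781 and 649 FPKM in the controls. General adipocyte markers were lower in 11 of 12 genes, with a median of -0.34 and 0 called. At an unadjusted p under 0.05, 9 were lower, against 5.95% of all rows. Their summed level was 79.5% of the control mean, beside 83.5% for the 36 subunits. T and NK cell markers rose in 3 of 12 genes, which were Gzmb, Klrk1 and Gzma, against 3.22% of all rows. In 6 of the 12 both inhibitor values lay above both control values, against 33.1% of all rows. The groups overlapped in the other 6, as they did in 5895 of all 12345 rows. These were Cd3d, Cd3e, Cd3g, Cd4, Cd8a and Cd2, and each was lowest in control 2. The 12 summed to 253 and 297 FPKM with the inhibitor and 147 and 90.6 FPKM in the controls. Macrophage markers rose in 2 and fell in 1 of 12, where 3.22% and 0.267% of all rows did. They summed to 2426 and 2274 FPKM with the inhibitor and 2037 and 2199.7 FPKM in the controls. Endothelial markers summed to 266 and 250.2 FPKM with the inhibitor and 302 and 277 FPKM in the controls. Of these 8 genes 0 were called and 1 was lower at an unadjusted p under 0.05, against 5.95% of all rows. B cell and lymph node markers had 0 of 10 called, and 0 at an unadjusted p under 0.05. The part of cell composition in the subunit values was not tested.

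The 36 genes are spread over 15 chromosomes of GRCm38, the assembly of the authors' build mm10, and most are short. Their longest annotated coding transcripts measured 371 to 4715 bases, with 19 of 36 under 1000 bases. The median fold change was -0.22 for these 19 and -0.29 for the 17 others, on the log2 scale. Near-identical copies elsewhere in the genome, at 90% identity or more over at least 200 bases and 80% of the copy, were annotated for 16 genes, 15 of them with pseudogenes. Atp5g1 had 4 pseudogene copies, Atp5l had 13, Cycs had 9 and Atp5h had 6. Reads of such genes may be shared with their copies, so the values of all 16 are less certain. They include the higher values of Atp5g1, the 1 gene above 0, and lower values such as those of Atp5h. Of the 16, 15 were below 0, against 40% of all rows, with a median of -0.23. In 13 of them both inhibitor values lay below both controls, against 19.1% of all rows. Without the 16, all 20 remaining genes were below 0 and none overlapped between the groups, with a median of -0.26. Genes on the opposite strand overlapped 13 of the 36, among them Atp5j, whose neighbour Gabpa encodes a factor that binds promoters of respiratory chain genes, and Atp5a1, Atp5d, Atp5f1, Uqcrc2 and Cox6c. The library kit keeps the strand, per the labels' protocols, but whether counting used it was not stated there. Reads of such pairs may therefore not be separate. Genes on the same strand overlapped 5 of the 36, and strand does not separate their reads. Among these 5 are Atp5b, with snoRNA and microRNA genes, and Atp5o, with a further protein-coding gene annotated as Atp5o.

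Promoters of these genes were examined because nearly all of them lay on the same side of 0. RefSeq promoter windows on GRCm38.p6, from 250 bases before to 50 bases after the start of transcription, were found for 29 of the 36, which leaves out Sdhc, Uqcrc2, Uqcrq, Uqcrb, Cyc1, Cox6c and Atp5a1. Of 4 short motifs, searched on both strands, GCATGCGC is the core bound by NRF1, a factor known for activating genes of respiration, and it was in windows of 7 of the 29 genes (24.1%), against 2.71% of all 32851 windows and 5.86% of tested genes with a window. The ETS motif CCGGAAG, bound by GABPA among others, was in 10 (34.5%), against 8.86% of all windows and 19.9% of tested genes. AANATGGCG, bound by YY1, was in 4 (13.8%), against 2.38% and 5.92%. AAGGTCA, bound by estrogen-related receptors, was in 6 (20.7%), against 4.72% and 3.95%. The motifs do not contain each other, but GCATGCGC overlaps its own reverse complement GCGCATGC, so 1 site can be matched on both strands. A gene was counted when any of its windows held the motif. In the window nearest the annotated start, 16 of the 29 genes held at least 1 of the motifs and 13 held none. Windows of 5 genes are shown, the c subunit genes because their fold changes differed in sign, Uqcr11 as an example of the 4 genes that hold both the NRF1 and the ETS motif, which are Uqcr11, Sdhb, Atp5k and Atp5l, and Uqcrfs1 because its fold change was the lowest; capitals mark motif matches.
Atp5g1 (chr11:96075582-96075881, minus strand): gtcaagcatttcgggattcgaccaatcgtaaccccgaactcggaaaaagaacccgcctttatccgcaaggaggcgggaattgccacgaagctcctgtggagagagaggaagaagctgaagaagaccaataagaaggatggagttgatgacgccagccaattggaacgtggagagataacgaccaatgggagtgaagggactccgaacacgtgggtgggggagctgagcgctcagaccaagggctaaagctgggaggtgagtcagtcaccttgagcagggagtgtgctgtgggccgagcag
Atp5g2 (chr15:102670998-102671297, minus strand): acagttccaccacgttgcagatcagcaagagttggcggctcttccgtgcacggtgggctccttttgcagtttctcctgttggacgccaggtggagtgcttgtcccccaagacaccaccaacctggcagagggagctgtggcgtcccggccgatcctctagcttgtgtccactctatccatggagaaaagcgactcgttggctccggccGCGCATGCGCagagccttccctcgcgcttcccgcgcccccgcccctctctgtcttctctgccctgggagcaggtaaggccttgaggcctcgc
Atp5g3 (chr2:73911277-73911576, minus strand): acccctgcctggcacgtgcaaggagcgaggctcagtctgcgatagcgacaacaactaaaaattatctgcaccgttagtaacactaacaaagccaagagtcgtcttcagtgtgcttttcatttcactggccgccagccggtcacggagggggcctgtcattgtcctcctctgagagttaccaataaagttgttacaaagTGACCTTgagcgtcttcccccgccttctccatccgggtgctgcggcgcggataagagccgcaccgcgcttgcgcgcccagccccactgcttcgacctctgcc
Uqcr11 (chr10:80406772-80407071, minus strand): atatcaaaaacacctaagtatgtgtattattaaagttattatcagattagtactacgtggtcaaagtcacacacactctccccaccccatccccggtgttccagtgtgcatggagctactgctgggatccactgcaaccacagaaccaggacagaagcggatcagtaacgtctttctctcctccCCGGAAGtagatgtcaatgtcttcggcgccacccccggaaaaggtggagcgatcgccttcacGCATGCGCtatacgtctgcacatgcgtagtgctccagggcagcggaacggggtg
Uqcrfs1 (chr13:30545267-30545566, minus strand): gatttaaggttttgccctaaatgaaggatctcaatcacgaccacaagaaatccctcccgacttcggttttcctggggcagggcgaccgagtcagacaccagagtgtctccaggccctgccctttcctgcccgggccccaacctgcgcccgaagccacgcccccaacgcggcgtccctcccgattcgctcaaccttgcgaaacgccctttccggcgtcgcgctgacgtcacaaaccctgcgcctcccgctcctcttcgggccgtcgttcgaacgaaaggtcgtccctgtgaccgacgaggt

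None of the 4 motifs was in the Atp5g1 window, and none was in that of Uqcrfs1, the genes at the opposite ends of the fold changes. Atp5g2 carries the NRF1 core on both strands as 1 palindromic stretch. Atp5g3 carries the receptor motif. A match describes these letters and is not evidence of binding, and a window without one says only that the letters are not there. Log2 fold changes of genes for factors that bind these motifs were 0.37 for Nrf1, 0.28 for Yy1 and 0.0089 for Gabpa. For the receptors they were -0.14 for Esrra and -1.18 for Esrrg. None of these passed the test. Their relation to the subunit values was not tested.

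The microRNA named in the labels pairs with messages mainly through its seed, bases 2 to 8. The arm usually meant by the name, mmu-miR-203-3p, lies at chr12:112130927-112130948 of GRCm38.p6, plus strand, and its RefSeq sequence is shown with its seed in capitals, because the seed gives the match searched for; the labels do not name the arm.
mmu-miR-203-3p: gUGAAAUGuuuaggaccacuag

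Its seed match CATTTCA was found in the longest annotated 3' untranslated region of 3 of the 36 genes (8.33%), against 16.8% of tested genes with such a region. Those regions had a median of 247 bases in the 36 genes and 1153 bases in all tested genes, so the shares are not for equal lengths. The 3 genes are Sdhd, Atp5g3 and Atp5j, and each holds 1 match, shown in capitals with the bases around it.
Sdhd: gtgagactgaaCATTTCAtgagctcatgt
Atp5g3: atttccacagtCATTTCAttaaagatgaa
Atp5j: aaataaacattCATTTCAcagttatcaaa

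All 3 had lower values with the inhibitor, at -0.29, -0.16 and -0.15 on the log2 scale, and none passed the test. Atp5g1, the gene with higher values, held no match in a region of 4252 bases, the longest of the 36.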

How the data were processed

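The data were RNA sequencing profiles of 4 pools of mouse subcutaneous white fat, 2 given the miR-203 inhibitor and 2 given the negative control. The deposited values are FPKM per gene, per the file headers, made by the authors with TopHat2 2.0.11 and Cufflinks 2.1.1 on mm10, per the submitters' processing notes. The sources used here do not give their settings, annotation or strand handling. An FPKM value is relative to its library's total, and no counts come with it.

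Rows averaging 1 FPKM or more were taken as log2(FPKM + 1). The groups, read from the titles, were tested by limma 3.58.1 under R 4.3.3 (trended eBayes, two-sided, Benjamini-Hochberg over 12345 rows, threshold 0.05), with 2 residual and 5.29 total degrees of freedom. Lists were described by counts and medians, without a test. Members, lists and rules were chosen with earlier results of these data known. All 36 members are named. Full statistics go to those with the smallest p or the extreme fold changes of each complex. They also go to Sdhb, Cycs, Atp5g1, Atp5g2, Atp5g3 and Atpif1. Other pathway lists give up to 3 genes with the smallest p, besides genes of factors whose motifs were searched. Alternatives covered the pseudocount (0.1 and 5), filter, scaling, variance trend, replicate block and each library left out. Positions and transcripts come from GENCODE M21.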

Additional observations from a re-analysis of the deposited data

How the results depend on the processing

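Under each of the 12 alternatives 35 of the 36 subunits stayed below 0 and Atp5g1 stayed above it, and no subunit changed sign or was called higher. Across these alternatives 424 values of single subunits kept their direction and side of the threshold, and 8 more kept their direction and passed it. Subunits called lower numbered 4 after quantile normalization (Uqcrfs1, Uqcrc2, Atp5d and Atp5h) and 1 with genes of mitochondrial DNA taken out (Uqcrfs1), and between 0 and 3 when 1 library was left out, with 3 without control 1. The median log2 fold change was -0.31 after quantile normalization and -0.35 with upper quartile scaling, and -0.32 to -0.20 with 1 library left out. For complex II it was -0.36 with upper quartile scaling and -0.31 to -0.21 with 1 library left out, and for complex III with cytochrome c -0.42 and -0.41 to -0.27. Complex IV had -0.31 after quantile normalization, -0.37 with upper quartile scaling and -0.32 without mitochondrial genes, with -0.32 to -0.20 when 1 library was left out, and complex V had -0.25, -0.29 and -0.24, with -0.27 to -0.15. The median of all rows was 0.066, and -0.033 and -0.029 under the 2 scalings, so part of these moves is shared by all genes. Rows called over the whole table were 430, and 132 without a filter, 226 without a variance trend and 0 to 785 with 1 library left out, where 0 were called without inhibitor 1, 0 without inhibitor 2 and 785 without control 1; those fits take the spread of the lone library from the other group. Higher rows were 92.3% of the calls, and 78% (326 higher, 92 lower) after quantile normalization. With the replicate number as a block 354 rows and 0 of the 36 subunits were called, with a smallest adjusted p of 0.0844; same-numbered pools did not deviate together (r = -0.0058 over 12345 genes), so the numbers were not taken as pairs. The cause of each move was not tested. Absolute depth is unknown, and 2 pools a group limit what can be called at differences of this size.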
